A study of Mus musculus with 4 samples.

Results

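The transcripts of 37 genes of the lysosome were followed in single cells from mouse spinal cord. The members were taken by gene symbol from a given list, and all 37 were found among the 32285 genes of the deposited tables. They comprise 6 subunits of the V0 sector and 8 subunits of the V1 sector of the vacuolar proton pump, 2 accessory proteins of that pump, 7 lysosomal membrane proteins, 11 lysosomal enzymes, 2 precursors of enzyme cofactors (Psap and Grn) and 1 regulator, the transcription factor Tfeb. Tfeb is not itself a protein of the lysosome, so the list holds more than enzymes, membrane proteins and the pump. A further 78 lysosomal genes outside the list (other pump subunits, enzymes, transporters, sorting and nutrient-sensing proteins, and the Tfeb relatives Tfe3, Mitf and Tfec) served for comparison.

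Lysosomes break down material that a cell has taken up or no longer needs, with hydrolases that work in an acid lumen. The vacuolar proton pump supplies the acid: its cytosolic V1 sector hydrolyses ATP and its membrane-bound V0 sector passes the protons. Many of these genes carry a short E-box in their promoters that is bound by TFEB and its relatives, and in microglia, the resident phagocytes of the cord, lysosomes digest myelin, lipid and dying cells.

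The study compared 4 groups of mice, each measured as 1 library made from the pooled cords of 2 animals, so no group has a replicate and no test between groups was possible. P301S mice carry a human tau gene with a mutation that causes tauopathy. The first group was transgene-negative with normal CD8 (P301S neg CD8 WT, 30 weeks of age). The other groups were all homozygous for the transgene (P301S hom): CD8 WT at 30 weeks, CD8 WT at 33 weeks, and a group labelled CD8 KO at 30 weeks. The promoter that drives the transgene, the strain, the sex of the mice and the altered CD8 gene are not given in the sources used here. The labels describe the tissue as leukocytes and other cells of the spinal cord, with myelin removed before loading. Transcripts of single cells were tagged at the 3' end and counted as unique molecular identifiers (UMIs, one per captured transcript). Each value below is the sum of a gene's UMIs over the cells of one class in one library, scaled to the total of that sum as CPM, the usual measure of relative abundance, with a 95% Poisson interval. Intervals of folds are exact conditional-binomial intervals, those of shares are Clopper-Pearson intervals, and all cover counting error only. Differences between mice are not measured by any of them.

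The libraries held 36331214 to 43531426 UMIs over 5107 to 6433 barcodes, of which 4692 to 5640 cells were kept. Any pair of libraries shared 5 to 12 barcodes. In T cell-like cells Cd8a stood at 232 to 279 CPM in the CD8 WT libraries and at 4.62 CPM (1 UMI in 83 cells) in the library labelled CD8 KO, where endothelial-like cells held 1037 Cd8a UMIs against 0 in those of the CD8 WT libraries. Cd8b1 in T cell-like cells stood at 384 to 444 CPM and at 148 CPM. Macrophage-like cells, named from 12 microglia markers that were all detected, numbered 1337 in P301S neg, 1947 in P301S hom at 30 weeks, 1593 in P301S hom at 33 weeks and 2439 in the group with the CD8 KO label. The same order is used for every series of 4 values below. Different clusters held most of the class in different libraries: a cluster led by P2ry12 held 78.2% of it in P301S neg and 10.5% to 15.9% in the P301S hom libraries, where clusters led by Gpnmb and Spp1 held most. A shallow cluster with a median of 994 UMIs per cell held 14.7% of the class in P301S neg and 0.873% to 1.76% elsewhere. Median UMIs per macrophage-like cell were 4991, 10418, 8179 and 9317. The share of these cells with a UMI of at least 2 border macrophage markers was 1.94%, 24.7%, 20.3% and 17.0%. Cells with a female or male call numbered 557 and 369, 1778 and 0, 609 and 611, and 2 and 1675, so the transgene comparison sets a mixed library against a female one and the CD8 comparison sets males against females. Sex and CD8 label cannot be told apart between the P301S hom libraries at 30 weeks.

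The E-box of this gene network has the core CACGTG, which reads the same on both strands, and the longer TCACGTGA contains it. RefSeq windows of 250 bases before to 50 bases after a gene's start (GRCm38.p6, the mm10 genome) were available for 30 of the 37 members. Atp6v1g1, Atp6v1h, Atp6v1c1, Atp6v1b2, Atp6v0d2, Npc1 and Asah1 were not in that table. CACGTG occurred in the windows of 9 of 30 members (30.0%), of 14 of 62 other lysosomal genes (22.6%) and of 1788 of 20267 genes of the table (8.82%). TCACGTGA occurred in 4 of 30 members (13.3%) against 1.35% of the table. A match describes letters in a window and is not shown to be a bound site. The stretches below, written 5′ to 3′ on the strand of the gene with each CACGTG in capitals and 20 bases on either side, are those of Lamp1, which holds 4 copies, and of the 5 members with a copy whose level differed by 1.5-fold or more between P301S hom and P301S neg.
Lamp1 (chr8:13159080-13159171, + strand): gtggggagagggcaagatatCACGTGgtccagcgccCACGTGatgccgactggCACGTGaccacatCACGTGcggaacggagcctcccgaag
Atp6v1a (chr16:44139365-44139410, - strand): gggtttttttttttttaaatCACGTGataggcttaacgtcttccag
Atp6v0e (chr17:26676379-26676424, + strand): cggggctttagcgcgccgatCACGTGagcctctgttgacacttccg
Glb1 (chr9:114401010-114401055, + strand): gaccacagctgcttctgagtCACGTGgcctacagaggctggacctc
Gaa (chr11:119267803-119267848, + strand): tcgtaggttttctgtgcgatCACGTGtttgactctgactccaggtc
Lgmn (chr12:102439116-102439161, - strand): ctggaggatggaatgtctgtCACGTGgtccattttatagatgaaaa
The other members with a copy were Atp6v0b (2 copies), Mcoln1 (2 copies) and Atp6v0d1 (1 copy). Lgmn also had a window at another start site (chr12:102439679-102439978), which held 0 copies. In the Lamp1 window the copies lay from 61 to 15 bases before the start site, at Atp6v1a the copy lay 131 bases before it, and at Atp6v0e it began 4 bases after it.

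Together the members took up 1.71%, 1.98%, 1.96% and 1.96% of all UMIs of macrophage-like cells, and the pump members alone 0.339%, 0.461%, 0.446% and 0.448%. The value of P301S neg was the lowest in both series, and the 3 P301S hom libraries lay close together. Because the macrophage-like cells of P301S hom also held more UMIs in all, the members' UMIs per cell were further apart, at 80.8, 214, 176 and 192. Per cell, 35 of the 37 members were at least 1.5-fold higher in P301S hom than in P301S neg at 30 weeks, a share to be read against 65.4% of all genes tested. The results below therefore use CPM, which removes the difference in total UMIs per cell.

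In macrophage-like cells at 30 weeks, 10 of the 37 members were at least 1.5-fold higher in P301S hom than in P301S neg, where 11.7% of the 11798 genes tested were, and 2 were at least 1.5-fold lower, where 36.1% of genes were. All 37 members had the 20 UMIs over both libraries that the comparison required. The median log2 ratio of the members was 0.39 and that of all genes tested -0.37, and 34 of the 37 members lay above the median of all genes. The exceptions were Lgmn, Tfeb and Atp6v1h, a V1 subunit that couples ATP hydrolysis to the rest of the pump, at a log2 ratio of -0.49. The 72 other lysosomal genes tested had a median of 0.14, with 17 higher and 15 lower. With TMM scaling, which sets the typical gene to no change, 24 members were higher and 0 lower, against 22.7% and 16.2% of genes. The counts therefore turn on the scaling, and the plot of transgene ratios by role marks the median of all genes.

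**Figure D1:**
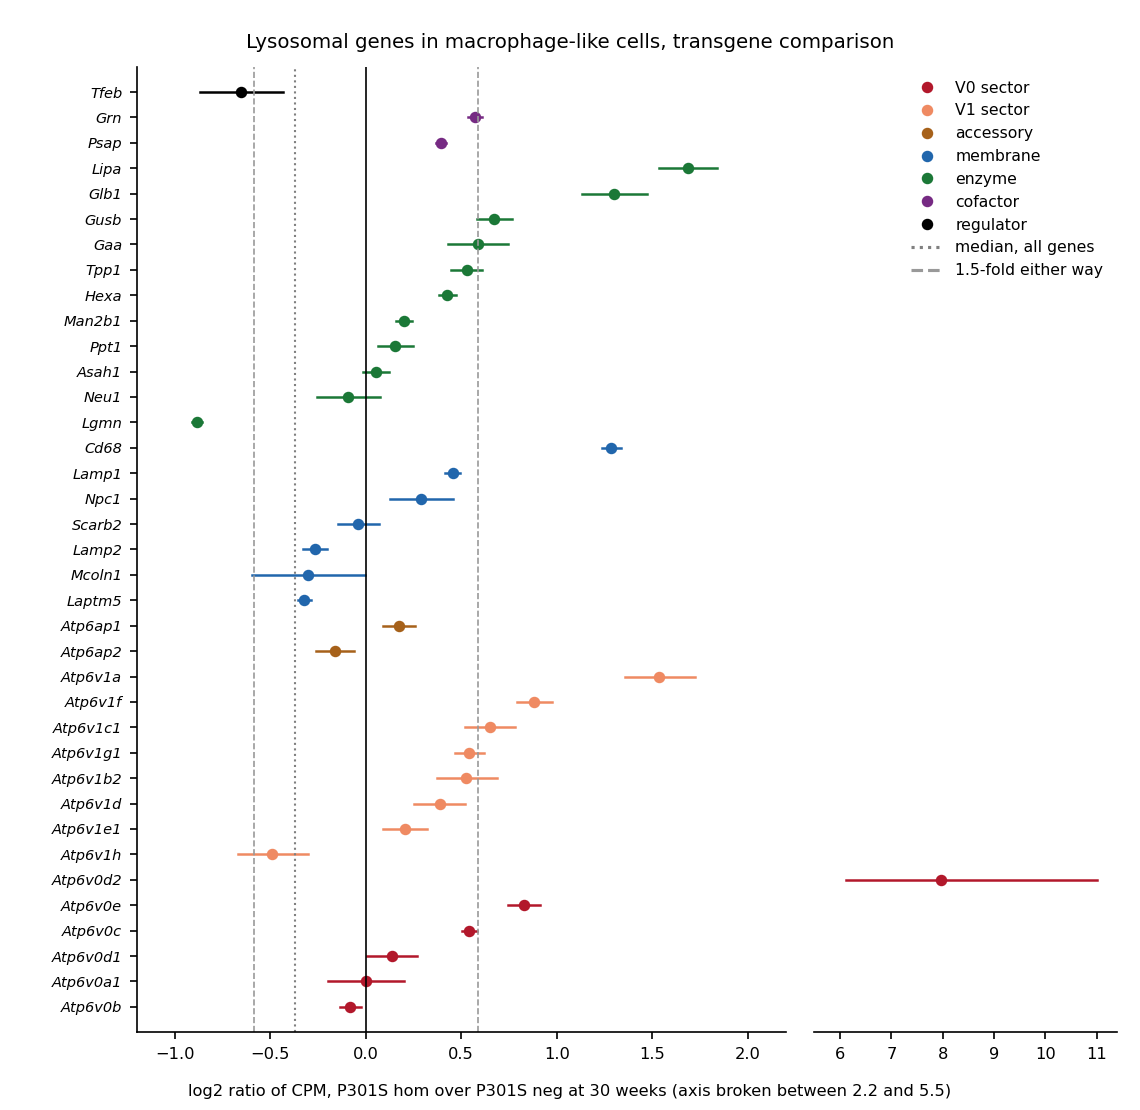
The log2 ratio of CPM in P301S hom over P301S neg at 30 weeks in macrophage-like cells (x axis, broken between 2.2 and 5.5) for each of the 37 members (y axis), coloured by role. Points are ratios of 1 library over 1 library, bars are 95% intervals for counting error, the dotted line is the median of all genes tested (-0.37) and the dashed lines are 1.5-fold either way. Atp6v0d2 stands apart at 7.96, and Lgmn and Tfeb lie left of the dashed line.

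The V0 sector held the member that differed most. Atp6v0d2 (ENSMUSG00000028238, mm10 chromosome 4, 19876841 to 19922605) encodes one of the 2 forms of the d subunit, which joins the sectors, and is known from osteoclasts and other specialised macrophages. It had 2, 1661, 1156 and 1163 UMIs in macrophage-like cells, or 0.317, 79.1, 80.8 and 48.6 CPM. The P301S neg library was nearly without it and the 3 P301S hom libraries were not. The fold of P301S hom over P301S neg at 30 weeks was 249, with an interval of 68.9 to 2061 that is wide because it rests on 2 UMIs. A UMI of Atp6v0d2 was found in 2 of 1337 cells (0.150%, interval 0.0181% to 0.539%) of P301S neg. The corresponding shares of the P301S hom libraries were 21.6%, 19.1% and 13.7%. With each cell thinned to 3000 UMIs, leaving out 447, 138, 159 and 203 shallower cells, the shares were 0, 12.5%, 10.8% and 7.02%. In endothelial-like cells, which are not known to use this subunit, the share was 0 of 1798 (interval up to 0.205%), 5 of 1031, 3 of 1015 and 1 of 1348, at median depths of 5579.5, 4760, 3890 and 4606.5 UMIs.

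Its common counterpart Atp6v0d1, the d subunit of most cells, stood at 95.2, 105, 101 and 107 CPM. As a share of the UMIs of both d subunits, counted as 3' tags that do not scale with transcript length, Atp6v0d2 made up 0.332%, 43.1%, 44.6% and 31.3%. Of the forms of the V0 a subunit, Tcirg1, the a3 form, made up 79.6%, 77.6%, 80.3% and 79.0% of the UMIs of Tcirg1 and Atp6v0a1, whereas Atp6v0a2, the a2 form, stood at 78.4, 25, 25.4 and 27.3 CPM. Of the remaining V0 members, Atp6v0e, the small e subunit, had 213, 379, 365 and 364 CPM, a fold of 1.78 (1.68 to 1.89). Atp6v0c, the c subunit that forms the proton-carrying ring, had 1131, 1648, 1555 and 1644 CPM, a fold of 1.46, just under the threshold. Atp6v0b, a further ring subunit, and Atp6v0a1 had folds of 0.945 and 0.999.

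In the V1 sector 3 of 8 members were at least 1.5-fold higher (11.7% of all genes tested were). The median log2 ratio was 0.53 and the range -0.49 to 1.54. Atp6v1a (chromosome 16, 44085402 to 44139705), the catalytic A subunit that hydrolyses ATP, had 43.5, 126, 130 and 118 CPM and a fold of 2.90 (2.56 to 3.3). Atp6v1f, a subunit of the central stalk, had 184, 339, 323 and 322 CPM and a fold of 1.84. Atp6v1c1, the C subunit that holds V1 to V0, had 90.6, 142, 136 and 133 CPM and a fold of 1.57. For each of these the P301S neg value lay below all 3 P301S hom values. Atp6v1g1 and Atp6v1b2, subunits of the peripheral stalk and of the catalytic head, had folds of 1.46 and 1.44, Atp6v1d 1.31 and Atp6v1e1 1.15. The 2 accessory proteins stood at 238, 268, 275 and 272 CPM (Atp6ap1) and at 178, 159, 165 and 158 CPM (Atp6ap2), and neither passed the threshold.

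Among the 7 membrane proteins 1 was at least 1.5-fold higher, close to the 11.7% of all genes tested. Cd68 (chromosome 11, 69664213 to 69666153), a heavily glycosylated protein of phagocyte lysosomes and a common stain for activated microglia, had 574, 1399, 1389 and 1239 CPM and a fold of 2.44 (2.35 to 2.52). Lamp1, a major glycoprotein of the lysosomal membrane, had 1046, 1434, 1450 and 1451 CPM and a fold of 1.37 (1.33 to 1.41). Npc1, the cholesterol exporter, had 58.7, 71.7, 68.1 and 65.7 CPM. Lamp2, a relative of Lamp1, and the leukocyte protein Laptm5 went the other way on the CPM scale, with 465, 387, 388 and 403.5 CPM and with 1657, 1326, 1285 and 1389 CPM, but their log2 ratios of -0.27 and -0.32 lay above the median of all genes and turned positive with TMM scaling. Mcoln1, the calcium channel of the lysosomal membrane, had 21.1, 17.1, 18.7 and 19.0 CPM, and its log2 ratio of -0.30 also turned positive with TMM scaling. Scarb2, the receptor that carries glucocerebrosidase to the lysosome, had 147, 143, 146 and 139.5 CPM.

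Of the 11 enzymes 4 were at least 1.5-fold higher (11.7% of all genes tested) and 1 was lower (36.1%). Lipa (chromosome 19, 34492318 to 34527474), the acid lipase that releases cholesterol and fatty acids from esters, had 61.4, 198, 185 and 174 CPM and a fold of 3.22 (2.90 to 3.58). Glb1, beta-galactosidase, had 50.6, 125, 108 and 126 CPM and a fold of 2.46 (2.19 to 2.78). Gusb, beta-glucuronidase, had 187, 298, 299 and 297 CPM and a fold of 1.59. Gaa, the acid glucosidase that degrades glycogen, had 63.9, 95.9, 90.9 and 97.9 CPM and a fold of 1.5 (1.35 to 1.67), which puts it at the threshold itself. The next members below it were Grn at 1.49 and Atp6v0c at 1.46.

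Lgmn (chromosome 12, 102394084 to 102439813), the asparaginyl endopeptidase legumain that matures other lysosomal proteases, had 3331, 1805, 1876 and 1945 CPM. P301S neg was the highest library and the fold was 0.542 (0.533 to 0.551), which is 1.85-fold lower in P301S hom. Per cell the direction was the opposite, with 15.7 UMIs of Lgmn in P301S neg and 19.5 in P301S hom (fold 1.24), since the cells of P301S hom held more UMIs in all. With TMM scaling its log2 ratio was -0.45, still below 0 but short of 1.5-fold. The remaining enzymes did not pass the threshold: Tpp1, a tripeptidyl peptidase, had a fold of 1.44, Hexa, the alpha chain of hexosaminidase, 1.34, Man2b1, the lysosomal alpha-mannosidase, 1.15, the palmitoyl thioesterase Ppt1 1.11, the ceramidase Asah1 1.04 and the sialidase Neu1 0.938.

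Both cofactor precursors were higher without reaching 1.5-fold. Psap, the precursor of the saposins that lift lipids to their hydrolases, had 2528, 3318, 3248 and 3292 CPM, a fold of 1.31 (1.29 to 1.34). Grn, progranulin, had 1085, 1613, 1588 and 1649 CPM, a fold of 1.49 (1.45 to 1.53). The regulator Tfeb (chromosome 17, 47737030 to 47792419) had 40.8, 25.9, 24.3 and 24.4 CPM and a fold of 0.636 (0.547 to 0.740), with P301S neg the highest library. Its log2 ratio of -0.65 became -0.21 with TMM scaling, -0.57 in female cells and -0.53 in cells of 3000 UMIs or more outside the shallow cluster, each short of 1.5-fold. Per cell Tfeb was higher in P301S hom, at 0.279 against 0.192 UMIs (fold 1.45). RNA of a regulator says nothing here about its protein or its place in the cell.

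**Figure D2:**
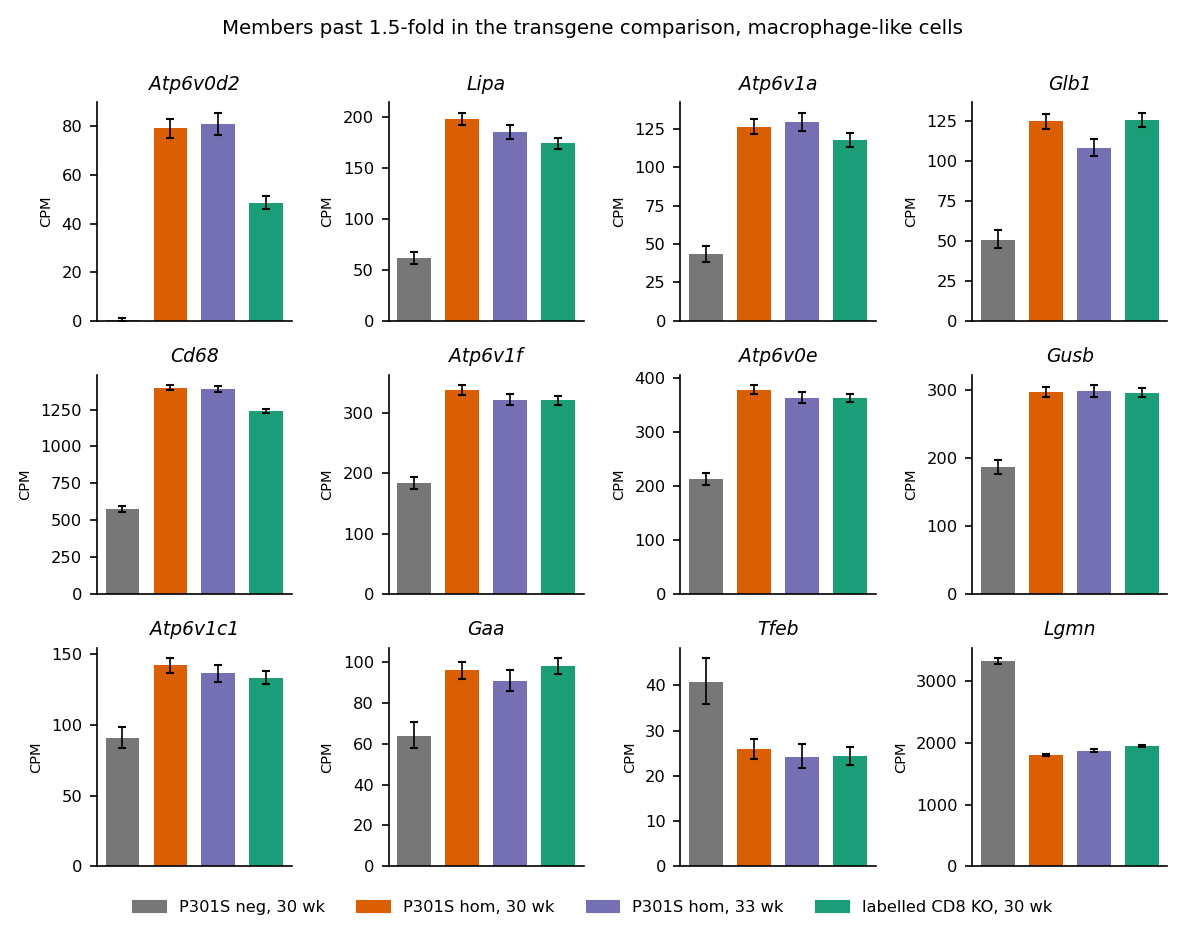
CPM in macrophage-like cells (y axes, each from 0) for the 12 members past 1.5-fold in the transgene comparison, ordered by ratio, with 1 bar per library and 95% Poisson intervals. In 10 panels the P301S neg bar is the lowest, and for Tfeb and Lgmn it is the highest.

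The members with CACGTG in their promoter window had a median log2 ratio of 0.45 in the transgene comparison (9 genes, 4 higher and 1 lower), and the 21 members without it a median of 0.20 (4 higher and 1 lower). Of all genes tested 11.7% were higher and 36.1% lower. The ranges of the members with and without CACGTG overlapped almost wholly, from -0.88 to 1.54 and from -0.65 to 1.69. Lipa, Cd68, Gusb and Atp6v1f, higher in P301S hom, had no CACGTG in their windows. Lgmn, lower in P301S hom, had a copy in the window printed above and none in its other window.

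The transgene comparison was repeated in macrophage-like cells with fewer than 5 UMIs of Gpnmb, a transmembrane glycoprotein of late endosomes and lysosomes that marks one range of activated microglia. In these cells 7 members were at least 1.5-fold higher (9.95% of genes tested were) and 2 lower (30.8%). Atp6v0d2, Atp6v0e, Atp6v1a, Atp6v1f, Cd68, Glb1 and Lipa were the higher ones, and Lgmn and Tfeb the lower. Values for Lipa were 61.5 CPM in P301S neg and 149 CPM in P301S hom, for Atp6v1a 43.6 and 97 CPM, for Cd68 573 and 1112 CPM, and for Lgmn 3338 and 2102 CPM. The difference between the libraries was thus present outside the cells rich in Gpnmb, at a smaller size for each of these 4 genes. Without cells that held 2 or more border macrophage markers, the log2 ratios over all macrophage-like cells were 7.43 for Atp6v0d2, 1.57 for Lipa, 1.15 for Cd68 and -0.80 for Lgmn.

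Among the other lysosomal genes the highest transgene ratios were those of Igf2r, Lyz2, Rragd and Galns. Igf2r, a receptor that carries hydrolases from the Golgi, had 2 UMIs in P301S neg and 321 in P301S hom, a ratio of 48.2 with an interval of 13.2 to 400. Lyz2, lysozyme, rose from 783 to 9400 CPM, Rragd, a GTPase of lysosomal nutrient sensing, from 2.06 to 23.7 CPM, and Galns, a sulfatase, from 4.60 to 25.9 CPM. The lowest ratios were those of Atp6v0a2, a further a subunit of V0 (78.4 and 25 CPM), the sulfamidase Sgsh (9.04 and 2.91 CPM), Tfe3 (237 and 91.3 CPM) and Atp6v1g2 (3.97 and 1.62 CPM). Of the Tfeb relatives, Tfe3 was thus 2.60-fold lower and Mitf stood at 28.4 and 33.4 CPM, while Tfec had too few UMIs for the comparison.

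Setting cells with at least 5 Gpnmb UMIs against cells with fewer, within one library, used cells that shared the mice, the dissociation and the sequencing. The split is a range of one count and not a cell type: 174 cells at 30 weeks, 109 at 33 weeks and 142 with the CD8 KO label lay at 3 to 6 Gpnmb UMIs (the order of each series of 3 values below). Cells of 5 or more numbered 538 (27.6%), 409 (25.7%) and 404 (16.6%), and 1 of 1337 in P301S neg. They were deeper, with median UMIs of 14694.5, 13325 and 14722.5 against 9079, 6885 and 8290. Median UMIs of border macrophage markers per cell were 5, 5 and 4 against 1, 0 and 1, those of microglia markers 430.5, 351 and 425 against 305, 242 and 291, and those of monocyte markers 1, 0 and 1 against 0 in each library. Their part in the results below was not tested, beyond the repeats without cells of 2 or more border macrophage markers. The members took up 2.15%, 2.12% and 2.14% of the UMIs of the cells rich in Gpnmb and 1.87%, 1.86% and 1.89% of those of the other cells.

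In each of the 3 P301S hom libraries the same 4 members were at least 1.5-fold higher in cells with 5 or more Gpnmb UMIs, and the same 1 was lower. The background in P301S hom at 30 weeks was 5.13% of genes higher and 15.2% lower, at 33 weeks 6.05% and 17.7%, and in the library labelled CD8 KO 5.22% and 17.9%. The share of genes past the threshold in all 3 libraries was 2.77% higher and 7.02% lower. The 4 higher members were Atp6v0d2, Lipa, Atp6v1a and Cd68, and the lower one was Lgmn. With TMM scaling 7, 8 and 5 members were higher (7.24%, 8.76% and 7.20% of genes) and 0, 1 and 0 lower (10.8%, 12.8% and 13.3%), so the call of Lgmn ended in 2 of the 3 libraries, at log2 ratios of -0.52, -0.60 and -0.53. The log2 ratio was above 0 in all 3 libraries for 24 of 37 members and below 0 in all 3 for 6. The matching shares of all genes were not taken, so these counts are a description only. The median log2 ratio of all genes tested was -0.14, -0.16 and -0.16.

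Atp6v0d2 stood at 181, 188 and 159 CPM in the cells rich in Gpnmb and at 13.9, 11.8 and 9.55 CPM in the others, log2 ratios of 3.70, 3.99 and 4.06. Of its 1661 UMIs in P301S hom at 30 weeks, 1483 lay in the 538 cells rich in Gpnmb. In those cells it made up 60.6%, 63.0% and 56.0% of the UMIs of both d subunits, and in the other cells 12.6%, 11.2% and 8.69%, against 0.167% in the Gpnmb-poor cells of P301S neg. Lipa stood at 274, 280 and 280 CPM against 149, 124 and 136 CPM. Atp6v1a stood at 172, 183 and 176 CPM against 97, 95 and 97.1 CPM, and Cd68 at 1849, 1876 and 1696 CPM against 1112, 1077 and 1078 CPM. Lgmn stood at 1340, 1330 and 1362 CPM against 2102, 2227 and 2151 CPM. For each of these 5 genes all values of the cells rich in Gpnmb lay on one side of all values of the other cells. Since the 5 were picked for passing 1.5-fold in each library, this separation is no further evidence.

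Over all 37 members the log2 ratio had the same sign in all 3 libraries for 30, a count without a share of all genes to set beside it. Among those whose sign differed, Atp6v0a1 ran from -0.13 to 0.26 and Mcoln1 from -0.19 to 0.13. Psap had log2 ratios of 0.45, 0.48 and 0.46, and Hexa of 0.46, 0.43 and 0.42. The V0 and V1 members had median log2 ratios of 0.24 to 0.29 and of 0.24 to 0.33, the membrane proteins of 0.11 to 0.21 and the enzymes of 0.24 to 0.29. Laptm5 and Man2b1 were lower in the cells rich in Gpnmb in all 3 libraries, with log2 ratios of -0.28, -0.35 and -0.33 and of -0.23, -0.31 and -0.29. Tfeb had -0.01, 0.06 and -0.23. Among the other lysosomal genes Lyz2 had 16522, 15329 and 16125 CPM in the cells rich in Gpnmb against 4843, 3740 and 4225 CPM, and Igf2r was 3.13-fold, 3.10-fold and 3.48-fold higher. Naaa, an acid amidase, and Atp6v0a2 had the lowest ratios in each of the 3 libraries, and Tfe3 had log2 ratios of -0.67, -0.69 and -0.71.

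**Figure D3:**
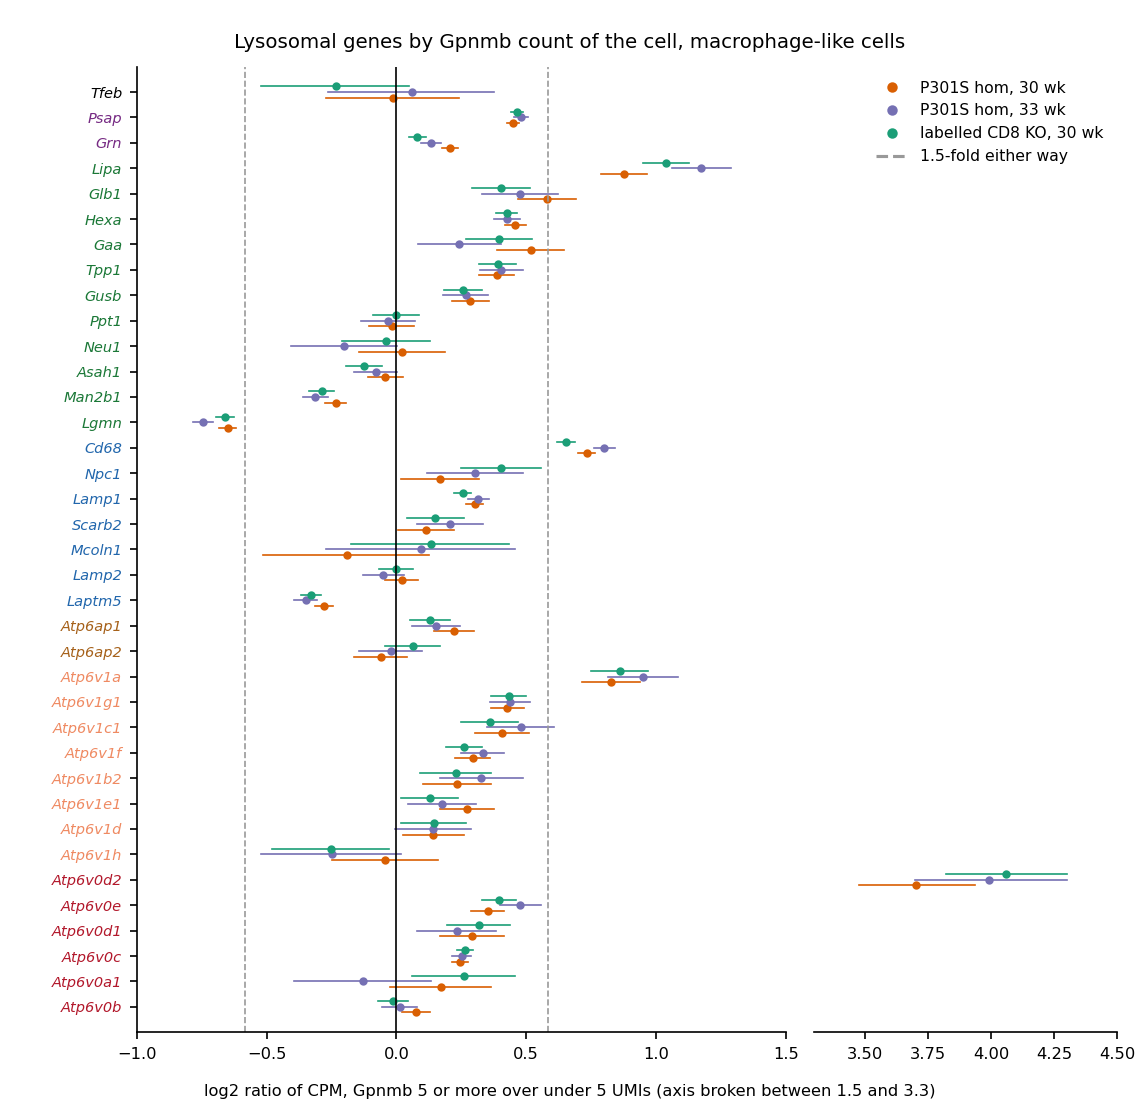
The log2 ratio of CPM in cells with 5 or more Gpnmb UMIs over cells with fewer (x axis, broken between 1.5 and 3.3) for the 37 members (y axis, names coloured by role), with 1 point per P301S hom library and 95% intervals for counting error. The points of the 3 libraries lie close together for most members, with Atp6v0d2 at 3.70 to 4.06 and Lgmn at -0.74 to -0.65.

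To remove the difference in depth, cells were thinned to 3000 UMIs and grouped by their remaining Gpnmb UMIs (0, 1, 2 to 4, 5 to 9, and 10 or more). The members' share of UMIs over these groups was 1.85%, 1.96%, 2.02%, 2.11% and 2.40% in P301S hom at 30 weeks. At 33 weeks it was 1.84%, 1.91%, 1.90%, 2.05% and 2.36%, and in the library labelled CD8 KO 1.87%, 1.92%, 2.06%, 2.10% and 2.36%. Cells of P301S neg, of which 889 of 890 had no Gpnmb UMI, stood at 1.66%. The lowest group of P301S hom therefore already lay above P301S neg, and the share was highest in the group with 10 or more Gpnmb UMIs in each library. Atp6v0d2 was higher in each group than in the one before it in all 3 libraries, from 13.1, 8.61 and 5.33 CPM to 316, 297 and 278 CPM. Psap and Cd68 also rose at each of the 4 steps in all 3 libraries, Psap from 2892, 2836 and 2987 CPM to 4961, 4947 and 5573 CPM. Lgmn went from 2208, 2377 and 2308 CPM to 1233, 1205 and 1115 CPM, lower at each step except 1 of the 4 at 33 weeks.

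**Figure D4:**
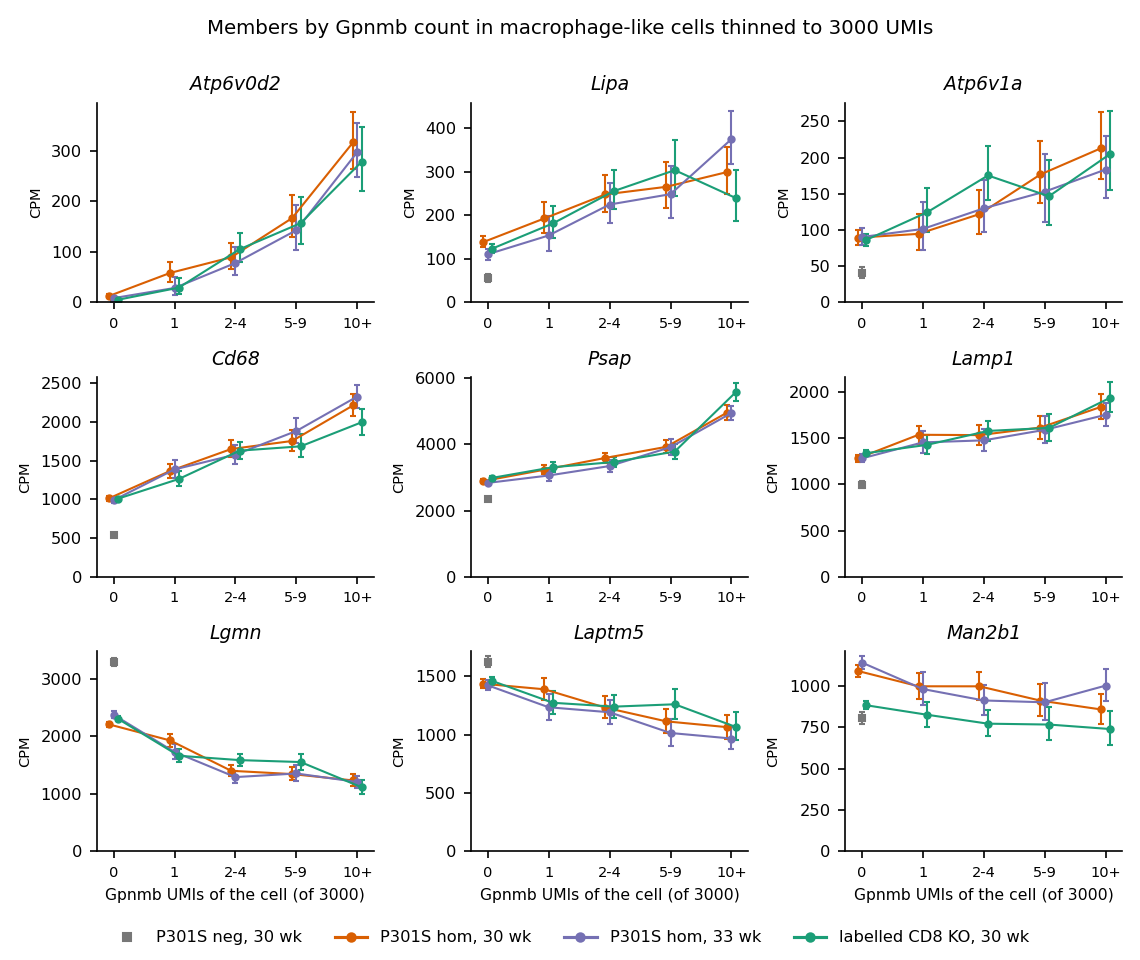
CPM (y axes, each from 0) of 9 members in macrophage-like cells thinned to 3000 UMIs, by the number of Gpnmb UMIs left in the cell (x axes), with lines for the 3 P301S hom libraries, squares for P301S neg and 95% Poisson intervals. Atp6v0d2 goes from under 15 CPM to about 300 CPM, Lgmn and Laptm5 go down, and Man2b1 of the library labelled CD8 KO lies below the other P301S hom libraries in each group.

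Between the library labelled CD8 KO and P301S hom CD8 WT at 30 weeks, 0 of 37 members were at least 1.5-fold higher in macrophage-like cells (5.60% of 12439 genes tested were) and 1 was lower (2.57%). The lower one was Atp6v0d2, with 48.6 against 79.1 CPM, a fold of 0.614 (0.569 to 0.662). Cells with 5 or more Gpnmb UMIs were 16.6% against 27.6% of the class. Within the cells rich in Gpnmb Atp6v0d2 stood at 159 against 181 CPM (log2 ratio -0.19), and within the others at 9.55 against 13.9 CPM (-0.54), so it passed the threshold in neither. Male cells of the library labelled CD8 KO against male cells of P301S hom at 33 weeks, a comparison that also differs in age, gave a log2 ratio of -0.97. The remaining members stood close to equal, and the median log2 ratio was -0.02 for the members and 0.04 for all genes.

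The next largest differences in this comparison were those of Man2b1, Lipa and Cd68. Man2b1 (chromosome 8, 85083270 to 85098282) stood at 884, 1016, 1044 and 846 CPM, with the library labelled CD8 KO the lowest, and its log2 ratio to P301S hom at 30 weeks was -0.26. It was -0.34 within the cells rich in Gpnmb, -0.28 within the others and -0.29 between male cells of that library and those of P301S hom at 33 weeks. Within endothelial-like cells Man2b1 stood at 60.6 CPM in P301S hom CD8 WT and 64.5 CPM in the library labelled CD8 KO at 30 weeks. Lipa had a log2 ratio of -0.19 and Cd68 of -0.18, and their values in the library labelled CD8 KO remained well above those of P301S neg. Of 73 other lysosomal genes tested, 1 was higher, Atp6v0e2 with 39 against 16 UMIs, and 0 were lower. After it the highest log2 ratios were those of Tpcn2 (0.24), Sgsh (0.22) and Atp6v1g2 (0.21), and the lowest were those of Lyz2 (-0.36), Rragd (-0.32), Acp5 (-0.26) and Gla (-0.24). Mitf, Tfe3 and Tfec had log2 ratios of 0.20, 0.04 and 0.00.

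Between 33 and 30 weeks in P301S hom CD8 WT, 0 of 37 members were at least 1.5-fold higher (3.26% of genes) and 0 lower (3.09%). The members' log2 ratios ran from -0.24 for Atp6v0a1 (898 and 519 UMIs at 30 and 33 weeks) to 0.13 for Mcoln1. Glb1 had -0.20 (125 and 108 CPM). Atp6v0d2 stood at 79.1 and 80.8 CPM. Among female cells alone its log2 ratio was -0.23. Of the 73 other lysosomal genes none passed the threshold. The lowest log2 ratios were those of Gm2a (-0.31), Flcn (-0.29), Atp6v1g2 (-0.28) and Rragd (-0.23), and the highest those of Tfec (0.45, on 14 and 13 UMIs), Gnptg (0.20), Sgsh (0.18) and Naaa (0.17). Both comparisons use the library of P301S hom CD8 WT at 30 weeks, and so does the transgene comparison.

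Across cell classes, 7 classes had at least 50 cells in every library. Averaged over the 4 libraries, 26 of the 37 members had their highest CPM in macrophage-like cells, 7 in monocyte-like cells, 3 in endothelial-like cells (Atp6v0a1, Mcoln1 and Tfeb) and 1 in neutrophil-like cells (Atp6v1e1). These levels are a description, since clusters were formed from the same counts. The members' share of all UMIs was 1.71% to 1.98% in macrophage-like cells, 1.11% to 1.15% in monocyte-like cells, 0.430% to 0.457% in neutrophil-like cells and 0.399% to 0.406% in endothelial-like cells. In smooth muscle-like cells it was 0.392% to 0.453%, in B cell-like cells 0.314% to 0.422% and in erythroid-like cells 0.132% to 0.189%. Pump members differed less between classes than the other members did: they made up 0.356% to 0.380% of UMIs in monocyte-like cells and 0.216% to 0.222% in endothelial-like cells, against 0.339% to 0.461% in macrophage-like cells.

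Several enzymes and membrane proteins set macrophage-like cells apart more than most pump members did. Lgmn averaged 2239 CPM there and 168 CPM in monocyte-like cells, the next class, Hexa 892 and 256 CPM, Glb1 102 and 25 CPM, and Cd68 1151 and 309 CPM. Others hardly did: Npc1 averaged 66.1 and 62.7 CPM in these classes, and Neu1 61.4 CPM against 54.8 CPM in neutrophil-like cells. Of the pump members Atp6v0d2 averaged 52.2 CPM in macrophage-like cells (0.317 to 80.8 CPM by library) and 3.97 CPM in monocyte-like cells (0 to 15.9 CPM). Psap averaged 3343 CPM in monocyte-like cells (3274 to 3410 CPM) and 3096 CPM in macrophage-like cells (2528 to 3318 CPM). The ranges overlapped, but macrophage-like cells were its highest class in 0 of the 4 libraries. Lipa averaged 154 CPM in macrophage-like and 143 CPM in endothelial-like cells, and in P301S neg it was higher in the endothelial-like cells. Atp6v1e1, the E subunit of the peripheral stalk, averaged 332 CPM in neutrophil-like and 190 CPM in monocyte-like cells.

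**Figure D5:**
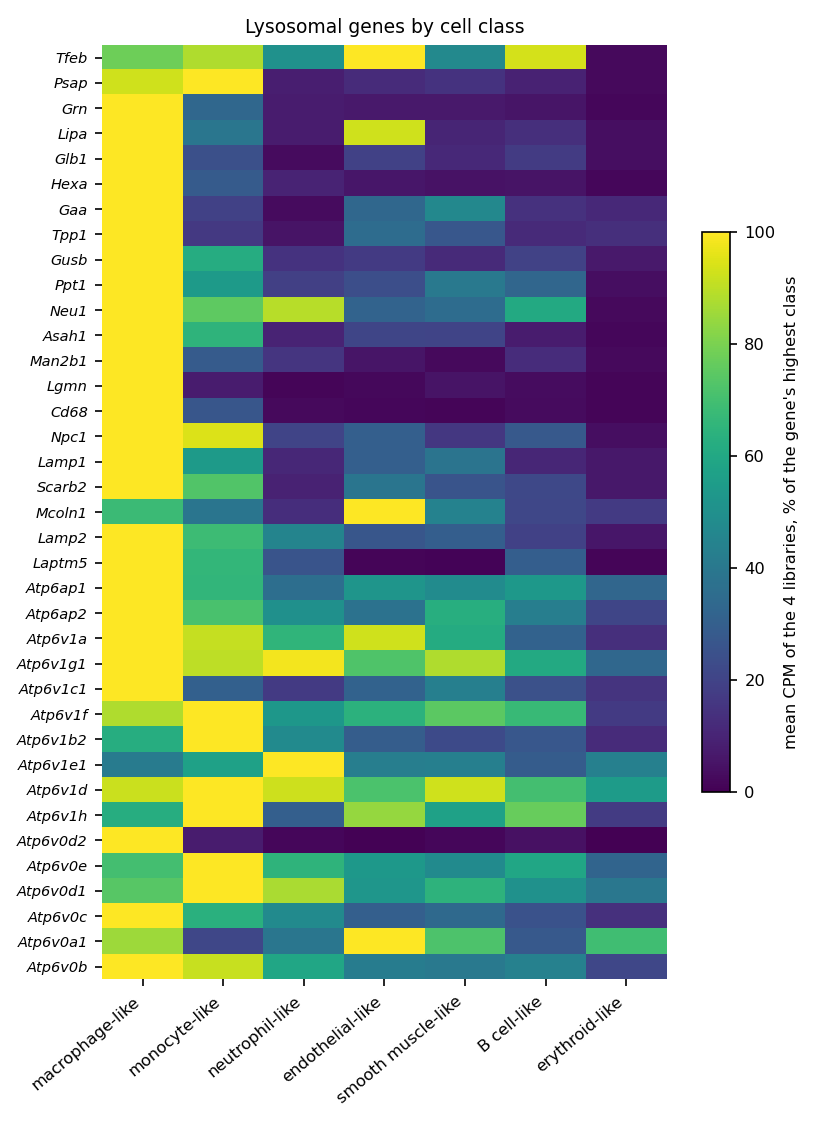
The mean CPM of the 4 libraries for each member (rows) in 7 cell classes (columns), as a percentage of the member's highest class (colour, 0 to 100). Most rows are brightest in the macrophage-like column, whereas several pump subunits are brightest in monocyte-like cells and Atp6v1e1 is brightest in neutrophil-like cells.

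Outside macrophage-like cells the transgene comparison gave different counts by class. In endothelial-like cells 36 members were tested, of which 2 were at least 1.5-fold higher in P301S hom at 30 weeks (4.58% of genes) and 0 lower (6.84%). The 2 were Cd68 (10.1 and 26.9 CPM) and Laptm5 (13.6 and 28.5 CPM), both genes of leukocytes. The summed CPM of microglia markers in the same endothelial-like cells was 157 in P301S neg and 494 in P301S hom at 30 weeks, and the part of these transcripts in the difference was not tested. Lipa in endothelial-like cells stayed between 142 and 145 CPM in the 4 libraries. In monocyte-like cells 0 of 35 members were higher (8.71%) and 1 was lower (10.2%), Mcoln1, which rested on 16 UMIs in P301S neg and 6 in P301S hom and whose fold interval of 0.146 to 1.22 included equality. Monocyte-like cells numbered 131, 113, 145 and 62. In neutrophil-like cells 1 of 33 members was higher (4.82%), Lgmn, and 1 was lower (11.0%), Ppt1. In erythroid-like cells 9 of 30 members were higher (22.4%) and 0 lower (3.28%), and in B cell-like cells 5 of 34 were higher (5.16%) and 5 lower (35.3%). Smooth muscle-like cells had 2 of 30 higher (12.4%) and 3 lower (12.9%). Summed microglia markers went from 102 to 272 CPM in erythroid-like and from 202 to 599 CPM in B cell-like cells. In smooth muscle-like cells they went from 180 to 252 CPM, and their part in these counts was not tested.

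The comparisons by CD8 label and by age called 0 of 36 members in either direction in endothelial-like cells, where 3.37% and 3.68% of genes were higher and lower by CD8 label and 3.27% and 4.70% by age. Classes with fewer cells held fewer UMIs per gene, and there larger shares of all genes passed the threshold as well. By CD8 label, neutrophil-like cells had 4 of 33 members higher (16.4%) and 2 lower (13.5%), and erythroid-like cells 11 of 29 higher (9.27%) and 2 lower (13.5%). Summed microglia markers went from 272 to 842 CPM in the same erythroid-like cells, from 547 to 917 CPM in neutrophil-like, from 252 to 1511 CPM in smooth muscle-like and from 599 to 382 CPM in B cell-like cells, and their part in these counts was not tested. B cell-like cells had 10 of 31 higher (25.0%) and 2 lower (11.3%), smooth muscle-like cells 5 of 31 higher (14.9%) and 0 lower (12.3%) and monocyte-like cells 1 of 33 higher (9.20%) and 0 lower (11.5%). By age, neutrophil-like cells had 2 of 33 higher (8.69%) and 1 lower (8.35%), erythroid-like cells 1 of 32 higher (3.20%) and 8 lower (22.8%), and B cell-like cells 10 of 34 higher (14.2%) and 1 lower (8.56%). Smooth muscle-like cells had 1 of 26 higher (11.8%) and 2 lower (10.9%) and monocyte-like cells 6 of 35 higher (12.3%) and 0 lower (6.88%). By age the summed microglia markers went from 599 to 960 CPM in B cell-like and from 272 to 356 CPM in erythroid-like cells. They went from 547 to 528 CPM in neutrophil-like, from 252 to 257 CPM in smooth muscle-like and from 1702 to 1307 CPM in monocyte-like cells. The part of these markers in the counts by age was not tested. T cell-like cells, under 50 in P301S neg, were left out of the transgene comparison. By CD8 label their 17 members tested had a median log2 ratio of 0.20, against 0.15 for the 3162 genes tested. By age 19 members had a median of 0.05, against 0.04 for 3265 genes. Within macrophage-like cells split by Gpnmb, 0 of 37 members passed in either direction by CD8 label (4.10% and 3.40% of genes in the cells rich in Gpnmb, 4.85% and 2.32% in the others) or by age (3.69% and 4.76%, 3.01% and 3.35%).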

How the data were processed

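Single-cell libraries from spinal cord were deposited by the authors as UMI count matrices, made with Cell Ranger 6.0.1 per the file headers and with the mm10 genome per the submitters' processing notes. The gene annotation is not given in the sources used here. The members and gene lists were chosen with earlier results of these data known. Cells with at least 500 UMIs, 200 genes and at most 15% mitochondrial UMIs were kept, and doublets called per library by scrublet (expected rate 0.06) were removed (42 to 98 cells). Counts were clustered with scanpy 1.11.5 (2000 variable genes, 30 components, 15 neighbours, Leiden resolution 1.0) on Python 3.11.15 with numpy 2.4.6 and scipy 1.17.1. Clusters were named from marker lists where at least 3 markers were each detected in 10% of cells, and stayed unnamed where markers of another class led them or were nearly as many. That rule was adjusted after the data were seen, and 9.40% to 14.8% of cells stayed in mixed or unnamed clusters. None of the 37 members was a marker. Cells were called female from Xist and male from Y-linked genes.

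Raw counts were summed per class and library (at least 50 cells) and scaled to CPM. Genes with at least 20 UMIs over both libraries compared were tested against a threshold of 1.5-fold. With 1 library a group no p-value was computed, and the calling steps were tested on simulated data. Every member is accounted for, with values in every library for those of the largest ratios in each role, and of the other lysosomal genes the 4 highest and 4 lowest ratios per comparison and the Tfeb relatives are named. Alternatives covered TMM scaling, the total without Apoe, the fold threshold, count and cell minimums, doublets, clustering resolution, the Gpnmb threshold and thinning, border macrophage markers and female cells. Male cells and cells of 3000 UMIs or more outside the shallow cluster were added after seeing the data. Sequences are RefSeq's, for build GRCm38.p6. Protein sequences were not used here.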

Additional observations from a re-analysis of the deposited data

Results flagged for a closer look

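For 3 members the transgene ratio at 30 weeks passed 1.5-fold in opposite directions in different cell classes, and with 1 library a group the difference between the classes was not tested. The share of all genes that did so was not taken. Of all genes tested, 22.4% were higher in erythroid-like and 4.82% in neutrophil-like cells. In B cell-like cells 35.3% were lower and in macrophage-like cells 36.1%. Lgmn had a log2 ratio of -0.88 in macrophage-like cells, of 0.90 in neutrophil-like cells (15.2 and 28.4 CPM, 42 and 82 UMIs) and of 1.64 in erythroid-like cells (7.75 and 24.1 CPM, 21 and 40 UMIs). Summed microglia markers went from 289 to 547 CPM in the same neutrophil-like cells and from 102 to 272 CPM in the erythroid-like cells, and their part in the result was not tested. Per 100 UMIs of C1qa, Lgmn stood at 42.9 and 21.2 in neutrophil-like, 31.3 and 35.7 in erythroid-like and 42.0 and 17.3 in macrophage-like cells. Atp6v1f had a log2 ratio of 0.88 in macrophage-like and of -0.60 in B cell-like cells (259 and 170 CPM). Atp6v1b2 had 0.71 in erythroid-like cells (36 and 36 UMIs) and -1.12 in B cell-like cells (49 and 12 UMIs), both on few UMIs.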

How the results depend on the processing

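The scaling mattered most. With TMM the members at least 1.5-fold higher in the transgene comparison went from 10 to 24 (22.7% of all genes) and those lower from 2 to 0 (16.2%). In the Gpnmb comparison at 30 weeks TMM gave 7 higher (7.24%) and 0 lower (10.8%), at 33 weeks 8 higher (8.76%), and in the library labelled CD8 KO 0 lower (13.3%). At a 2-fold threshold 5 were higher (6.85%) and 0 lower (16.9%) in the transgene comparison, 0 were lower for the CD8 label (0.852%), and in the Gpnmb comparison 1, 2 and 2 were higher (2.07%, 2.55% and 2.36%) and 0, 0 and 0 lower (5.60%, 6.99% and 7.46%) at 30 weeks, at 33 weeks and in the library labelled CD8 KO. Only 1 member, Lgmn, remained lower in the transgene comparison with the total without Apoe, in female cells, and in cells of 3000 UMIs or more outside the shallow cluster. In thinned cells at 33 weeks 2 were lower, Lgmn and Mcoln1. The other 119 counts under an alternative stayed within 1.5 times of the reported ones, and no call of a member turned its direction. At that limit itself lay the members higher in the transgene comparison with the total without Apoe, which went from 10 to 15 (12.8% of genes). The log2 ratio of Atp6v0d2 ran from 7.43 to 8.40 in the transgene comparison, that of Lipa from 1.52 to 2.13 and that of Lgmn from -0.98 to -0.45. Female cells gave no value for the CD8 label, since the library labelled CD8 KO held 2 female macrophage-like cells. No paired analysis was possible because each group is 1 library. Leaving out a replicate was not possible for the same reason. The width of the interval of Atp6v0d2 reflects its 2 UMIs in P301S neg. In female cells the transgene comparison gave 10 members higher (12.2%) and 1 lower (37.8%), with a median log2 ratio of 0.33. Mice and library differ together with the groups, so their parts cannot be told apart.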

Other observations

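Member shares were also taken in classes that held fewer than 50 cells in some library. T cell-like cells numbered 44, 66, 90 and 83, and in the 3 P301S hom libraries, which each held at least 50, the members took up 0.302%, 0.315% and 0.360% of UMIs. Oligodendrocyte precursor-like cells reached 50 only in the library labelled CD8 KO (54 cells), where the members took up 0.672% of UMIs and the pump members 0.367%.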
